A study of Arabidopsis thaliana with 24 samples.

Results

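The genes described here were repressed by phosphate (Pi) starvation in shoots of wild type Arabidopsis thaliana (WT, Columbia background), were not strongly repressed in its roots, and had a higher signal in Pi-starved shoots labelled phr1 phl1 than in Pi-starved WT shoots. They were chosen on group means of log2 expression values by 3 limits: WT shoots without Pi minus WT shoots with Pi below -1.7, WT roots without Pi minus WT roots with Pi at -1 or above, and phr1 phl1 minus WT in shoots without Pi above 1.3. Of 22746 probe sets on the array that were not controls, 431 passed the shoot limit, 357 of these passed the root limit, and 206 passed all limits. Genes of the organelle genomes and 6 named nuclear genes were set aside by the rule, which removed 4 probe sets (EXPA8, RR16, BEE2 and 1 organelle gene) and left 202 members. Of these, 100 matched 1 gene, 2 matched several genes and 100 could not be named here, and 14203 of all 22746 probe sets matched 1 gene. The named members lie on all 5 nuclear chromosomes (20, 22, 23, 16 and 19 on chromosomes 1 to 5), and no pair of them were neighbouring genes.

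Arabidopsis seedlings were grown for 7 days on solid medium with 2% sucrose. Total RNA of shoots and roots was hybridised to Affymetrix ATH1 arrays, with 3 biological replicates in each of 8 groups. The groups were phr1 phl1, phr1 and WT without Pi (-Pi) and WT with 2 mM Pi (+Pi), each in shoots and in roots. The phr1 plants carry a mutation in PHR1 and the phr1 phl1 plants a further T-DNA insertion in PHL1. No array came from a mutant grown with Pi. In these arrays a mutant's difference from WT that exists with Pi as well cannot be told apart from one in the starvation response. Whole shoots and whole roots were taken, so fewer cells of a type and less RNA per cell cannot be told apart.

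PHR1 and PHL1 are related MYB-type transcription factors that bind a short palindromic sequence in the promoters of many genes induced by Pi starvation. Ribosomal RNA holds a large part of the phosphate bound in organic form in a plant cell, and the synthesis of ribosomes, in the nucleolus for the cytosol and in the chloroplast for the plastid, is therefore a major use of Pi. Chloroplasts translate their own small genome on ribosomes of bacterial type, with many nuclear-encoded proteins that process plastid RNA, start translation and assemble the photosynthetic complexes of the thylakoid membrane. Where a role is given to a gene below, it is general knowledge of the gene or its protein family, not a result of these arrays.

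The targeted genes were checked first. The PHL1 probe set had a log2 signal of 7.06 to 8.36 in the 3 phr1 phl1 shoot arrays and of 8.55 to 9.31 in the 3 phr1 phl1 root arrays, against 4.34 to 6.06 in the other 18 arrays. The signal was thus higher, not lower, in every array labelled phr1 phl1, and where the probes lie relative to the insertion is not known. PHR1 was not matched to a probe set here. The label phr1 phl1 therefore rests on the submitters' naming in all that follows.

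The median log2 signal of the 202 members was 7.75, 7.74 and 7.28 in shoots labelled phr1 phl1, 7.55, 6.86 and 7.57 in phr1 shoots, 5.71, 5.05 and 5.73 in WT shoots without Pi, and 7.78, 7.70 and 7.82 in WT shoots with Pi. By this median every array of Pi-starved WT shoots lay below every other shoot array, which the rule fixed for all groups but phr1. Single arrays stood apart within groups. Replicate 2 of phr1 shoots was the lowest of its 3 arrays in 81.7% of members, against 33.9% of all probe sets, replicate 3 of shoots labelled phr1 phl1 in 67.8% of members, against 31.2% of all probe sets, and replicate 2 of WT shoots without Pi in 71.3% of members, against 34.4% of all probe sets. Over the 12 shoot arrays, which the members share, a member's correlation with the members' median profile ranged from 0.56 to 0.995 with a median of 0.92, most of it fixed by the rule. The named members closest to the median profile were AT3G06980 (r = 0.995), a DEAD-box RNA helicase, AT1G73110 (r = 0.988), similar to Rubisco activase, and AT2G24060 (r = 0.987), a plastid translation initiation factor of the IF3 type.

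**Figure D1:**
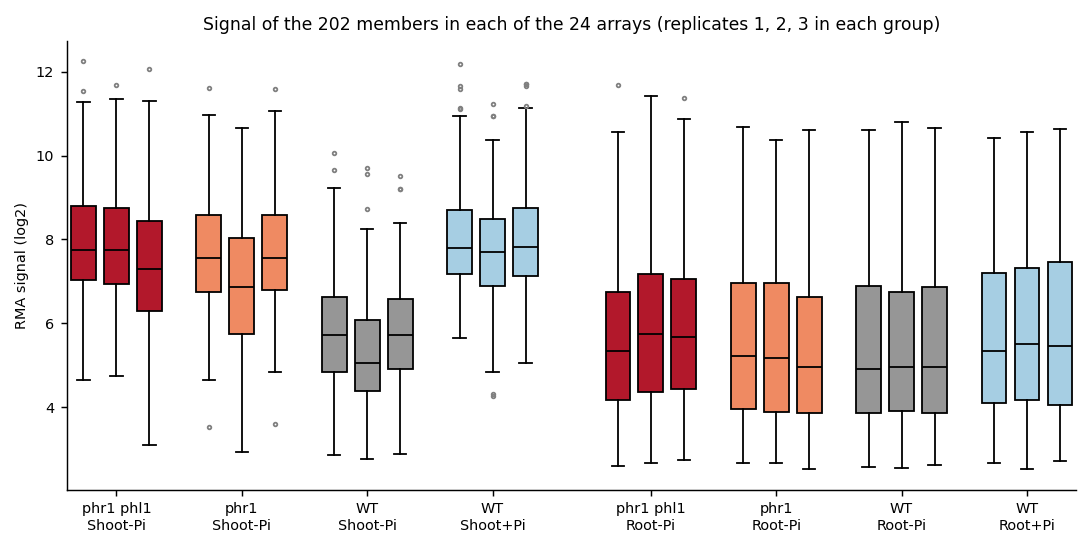
Log2 signal of the 202 members in each of the 24 arrays, 1 box per array with the median as a line, the middle of the members as the box and the rest as whiskers and circles. The medians of the 3 arrays of WT shoots without Pi lie between 5.05 and 5.73, those of the other 9 shoot arrays between 6.86 and 7.82, and those of the root arrays between 4.90 and 5.73.

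In WT shoots the members were lower without Pi than with Pi by a median of 2.06 on the log2 scale, with values of -5.77 to -1.7, beside a median of -0.04 over all probe sets. The 202 members are among the 7.95% of probe sets that were over 2-fold lower with an adjusted p under 0.05 in this comparison, and nothing is read from that, because the comparison chose them. The named member nearest the shoot limit was AT2G40360 at -1.701, and AT1G76450 at -1.698 and SVR7 at -1.697 lay just outside the limit and were not members. AT1G25230 lay at -0.999 just inside the root limit, with AT3G23700 at -1.01 and RBL at -1.03 outside it. AT2G21440 lay at 1.31 just inside the phr1 phl1 limit and AT4G16155 at 1.29 just outside it.

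The named members with the lowest values in Pi-starved WT shoots relative to Pi-fed ones covered unlike functions. AT5G16030, to which no role is given here, had log2 signals of 6.70, 7.05 and 4.26 in shoots labelled phr1 phl1, 5.96, 4.62 and 6.78 in phr1 shoots, and 4.54, 3.85 and 4.46 in WT shoots without Pi, against 8.53, 8.89 and 9.33 in WT shoots with Pi. Of the arrays labelled phr1 phl1, 2 lay between the WT groups and the other among the Pi-starved WT arrays. AT5G55220, a chaperone of the trigger factor type, which binds proteins as they leave bacterial-type ribosomes, had 7.49, 7.61 and 6.71 in shoots labelled phr1 phl1, 7.68, 6.04 and 7.44 in phr1 shoots, and 5.71, 4.38 and 5.79 in WT shoots without Pi, against 8.46, 8.49 and 8.47 in WT shoots with Pi. AT1G62480, AT3G19850 of the NPH3 family, AT5G62360 of the pectin methylesterase inhibitor family, AT1G07050 with a CCT motif, AT4G32340 with tetratricopeptide repeats, AT4G19530 of the TIR-NBS-LRR resistance protein class, AT1G25230 of the purple acid phosphatases and AT1G70200 with an RNA recognition motif completed the lowest 10, between -4.34 and -2.95. AT1G25230 belongs to a family of enzymes that release Pi from organic esters, members of which are better known as induced by Pi starvation. It had 8.02, 8.25 and 8.32 in shoots labelled phr1 phl1, 7.35, 7.49 and 7.49 in phr1 shoots, and 5.70, 6.04 and 5.14 in WT shoots without Pi, against 9.28, 7.31 and 9.32 in WT shoots with Pi. All arrays of both mutants lay above those of Pi-starved WT shoots.

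In shoots without Pi, the members were higher in plants labelled phr1 phl1 than in WT by a median of 1.84, with values of 1.3 to 6.0. This difference also chose them, and 8.24% of all probe sets were over 2-fold higher with an adjusted p under 0.05 in it. How far the signal returned to that of Pi-fed WT shoots was not part of the rule, though it follows from the sum of its differences. Shoots labelled phr1 phl1 without Pi minus WT shoots with Pi gave a median of -0.18, and 132 of 202 members lay within 0.5 of 0, 9 were more than 1 above it and 14 more than 1 below it. The same difference for phr1 shoots had a median of -0.39, with 106 members within 0.5 of 0, 2 more than 1 above and 36 more than 1 below. With the organelle genes and the 6 named genes set aside here too, the 149 probe sets that met the shoot and root limits but not the phr1 phl1 limit had a median phr1 phl1 minus WT difference of 0.77, and the 63 that met the shoot limit but not the root limit had a median of 1.24. The split at the phr1 phl1 limit fixed a lower median for the 149 than for the members, so nothing is read from that contrast.

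The largest of these differences among named members were those of AT3G06070 (4.50), AT5G62360 (3.98), AT3G61100 (3.70), AT5G20740 (3.14), AT3G51870 (3.03) and AT4G32340 (2.96). AT5G62360 had log2 signals of 9.67, 9.22 and 8.48 in shoots labelled phr1 phl1, 9.50, 6.82 and 9.74 in phr1 shoots, and 5.95, 4.44 and 5.03 in WT shoots without Pi, against 8.21, 8.57 and 8.39 in WT shoots with Pi. Replicate 2 of phr1 was the only mutant array below the Pi-fed WT arrays. AT3G61100, to which no role is given here, had 9.20, 9.31 and 9.36 in shoots labelled phr1 phl1, 9.01, 9.31 and 9.30 in phr1 shoots, and 5.21, 6.15 and 5.40 in WT shoots without Pi, against 7.72, 7.42 and 7.63 in WT shoots with Pi. All 6 mutant arrays lay above the Pi-fed WT arrays. AT3G51870, of the mitochondrial carrier family of membrane transporters, had 7.01, 7.22 and 7.66 in shoots labelled phr1 phl1, 7.00, 7.75 and 7.04 in phr1 shoots, and 4.38, 4.26 and 4.16 in WT shoots without Pi, against 6.73, 7.02 and 6.68 in WT shoots with Pi.

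The phr1 mutant alone was compared with WT in shoots without Pi to ask how much of the difference was present with PHL1 intact. phr1 was higher than WT by a median of 1.67, with values of -0.22 to 6.44, beside 0.02 over all probe sets. By limma with Benjamini-Hochberg adjustment over all 22746 probe sets, 180 of 202 members (89.1%) were over 2-fold higher with an adjusted p under 0.05, where 6.48% of all probe sets were, and 0 were lower, where 6.63% of all probe sets were. At an unadjusted p under 0.05, 195 members were higher and 0 lower. This comparison shares the arrays of Pi-starved WT shoots with the rule, so that a high share among the members was fixed in part by their choice and supports nothing further. The highest named values were those of AT3G61100 (3.62), AT3G06070 (3.55), AT5G62360 (3.54), AT3G51870 (3.0) and AT5G20740 (2.82), and the lowest those of AT1G54740 (0.26), AT1G62480 (0.53), AT5G57655 (0.59), AT4G30690 (0.66) and PRL (0.85).

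**Figure D2:**
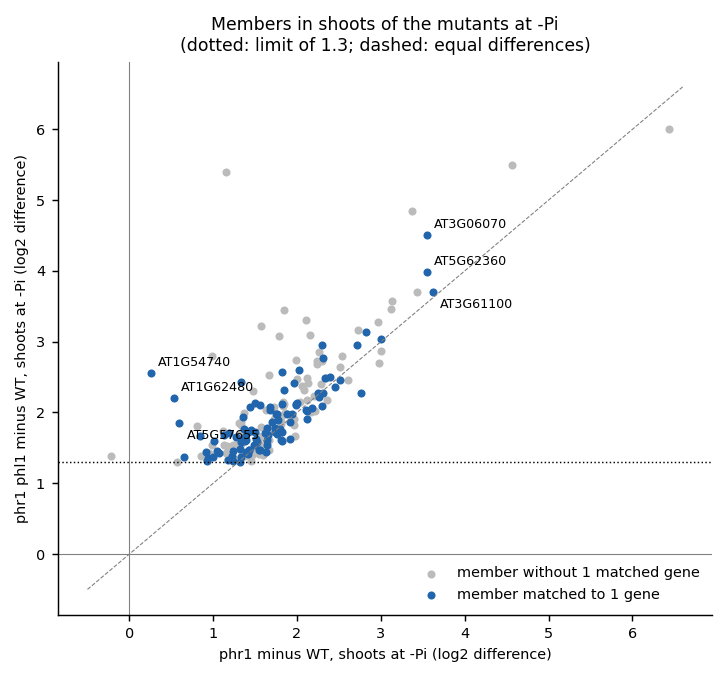
Log2 differences of the 202 members in shoots without Pi (-Pi), phr1 minus WT on the horizontal axis and phr1 phl1 minus WT on the vertical axis, 1 point per member, blue where it matched 1 gene. AT1G54740 and AT1G62480 lie far above the dashed line of equal differences, at 0.26 and 0.53 on the horizontal axis, and both axes share the arrays of Pi-starved WT shoots.

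In 2 of 202 members phr1 shoots lay within 0.5 of Pi-starved WT shoots. A few members were called higher in shoots labelled phr1 phl1 than in phr1 shoots. The difference phr1 phl1 minus phr1 in shoots without Pi had a median of 0.22 among members, beside 0.01 over all probe sets, with 155 of 202 values above 0, 12 above 1 and a range of -0.48 to 4.25. The arrays labelled phr1 phl1 were used by the rule, which required a high value in them, so a shift above 0 was favoured by the choice. By limma, 4 members (1.98%) were over 2-fold higher with an adjusted p under 0.05, where 0.207% of all probe sets were, and 0 were lower, where 0.563% of all probe sets were. At an unadjusted p under 0.05, 44 were higher and 0 lower. Of the 4, the named ones were AT1G54740 and AT1G62480.

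AT1G54740 had log2 signals of 7.12, 6.67 and 5.81 in shoots labelled phr1 phl1, 4.64, 3.09 and 4.98 in phr1 shoots, and 4.29, 3.53 and 4.11 in WT shoots without Pi, against 6.43, 4.85 and 6.03 in WT shoots with Pi. The phr1 arrays overlapped with those of Pi-starved WT, and the arrays labelled phr1 phl1 lay above both. The difference phr1 phl1 minus phr1 was 2.30 (SE 0.417, adjusted p = 0.0057 by limma). AT1G62480 had 8.4, 7.52 and 7.14 in shoots labelled phr1 phl1, 5.99, 5.63 and 6.42 in phr1 shoots, and 5.51, 5.49 and 5.44 in WT shoots without Pi, against 10.20, 9.22 and 10.04 in WT shoots with Pi. Its phr1 phl1 minus phr1 difference was 1.67 (SE 0.277, adjusted p = 0.0026 by limma), and the arrays labelled phr1 phl1 stayed below all Pi-fed WT arrays. When shoots were fitted without roots, the adjusted p was 0.143 for AT1G54740 and 0.0832 for AT1G62480 by limma, and 1 member was called. Without replicate 1 of phr1 shoots, 7 members were called instead of 4. AT5G57655, a xylose isomerase, had 7.64, 6.59 and 6.31 in shoots labelled phr1 phl1, against 6.02, 4.66 and 6.06 in phr1 shoots, and its difference of 1.26 did not pass the test (adjusted p = 0.199 by limma). At the other end, AT4G21870 of the small heat shock protein family had the lowest named value (-0.48), with 10.15, 9.22 and 9.77 in shoots labelled phr1 phl1, against 10.64, 9.21 and 10.73 in phr1 shoots.

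An unnamed probe set, 260221_at, singled out after its values were seen, had 9.62, 9.54 and 10.11 in shoots labelled phr1 phl1, 10.05, 10.16 and 10.39 in phr1 shoots, and 3.80, 3.94 and 3.52 in WT shoots without Pi, against 9.64, 9.04 and 9.90 in WT shoots with Pi. Among all 202 members it had the lowest value in WT shoots without Pi minus with Pi and the highest in each mutant minus WT in shoots.

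Most members had a higher signal in shoots than in roots of Pi-fed WT plants. Shoot minus root, within a probe set, had a median of 2.42, beside -0.03 over all probe sets. The rule used both of these groups, and its shoot limit needs a high signal in Pi-fed shoots, which favours a positive value. The probe sets that met the shoot and root limits but not the phr1 phl1 limit had a median of 1.46. The signal was over 2-fold higher in shoots for 138 members, within 2-fold for 52 and over 2-fold higher in roots for 12. All 30 named members sorted by role into plastid gene expression (18) or into thylakoid and plastid protein assembly (12) were over 2-fold higher in shoots, and all 10 members sorted into ribosome assembly in the nucleolus were higher in roots, 4 of them by over 2-fold. The role groups were put together after the values were seen and are described by their values, with no test.

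The 18 members for plastid gene expression were lower in Pi-starved WT shoots by a median of 2.17 and higher in shoots labelled phr1 phl1 by a median of 1.73. They include AT2G24060 and AT4G30690 of the plastid initiation factors, AT4G17560 coding for plastid ribosomal protein L19, RAP for processing of plastid 16S ribosomal RNA, CRR21 for editing of the plastid ndhD transcript, the DEAD-box helicases RH39 and AT3G06980, and AT3G18680, a plastid UMP kinase. AT2G24060 had log2 signals of 8.90, 8.99 and 8.63 in shoots labelled phr1 phl1, 9.03, 8.19 and 8.94 in phr1 shoots, and 6.88, 5.97 and 7.36 in WT shoots without Pi, against 9.17, 9.01 and 9.18 in WT shoots with Pi. The Pi-starved WT arrays stood below all others. CRR21 had 6.95, 6.97 and 5.39 in shoots labelled phr1 phl1, 6.48, 4.46 and 6.63 in phr1 shoots, and 5.05, 3.52 and 4.94 in WT shoots without Pi, against 6.13, 6.88 and 6.64 in WT shoots with Pi. Here replicate 2 of phr1 lay among the Pi-starved WT arrays. Of the 18 members, 16 were called higher in phr1 than in WT shoots (limma), where 89.1% of all members and 6.48% of all probe sets were. Between phr1 phl1 and phr1 shoots 0 passed the threshold, where 1.98% of all members and 0.207% of all probe sets were called higher. At an unadjusted p under 0.05, 2 of the 18 were higher and 0 lower.

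The 12 members for thylakoid and plastid protein assembly were lower in Pi-starved WT shoots by a median of 1.83. They include LPA19 and PAM68, which take part in the assembly of photosystem II, AT1G67700, a protein that protects photosystem II, immunophilins of the FKBP type (AT3G60370, AT4G26555 and AT1G73655), lumenal pentapeptide proteins (AT2G44920 and AT5G53490), factors of ATP synthase assembly (AT3G29185 and AT2G21385) and the chaperonin subunit Cpn60beta4. LPA19 had log2 signals of 7.22, 7.51 and 7.27 in shoots labelled phr1 phl1, 7.24, 7.53 and 7.55 in phr1 shoots, and 5.17, 5.02 and 5.6 in WT shoots without Pi, against 7.22, 7.15 and 7.24 in WT shoots with Pi. Mutant and Pi-fed WT arrays thus shared 1 range, well above the Pi-starved WT arrays. All 12 were called higher in phr1 than in WT shoots (limma), where 89.1% of all members and 6.48% of all probe sets were. The rule fixed the lower signal of these 12 factors in Pi-starved WT shoots, so no comparison is drawn with genes outside the set. A list of 38 genes of the light reactions, chosen with earlier results known, had 8 matched genes, of which 0 were members. Of the 8, 0 were called lower in Pi-starved WT shoots by limma (median difference 0.04), with 0 lower and 1 higher at an unadjusted p under 0.05. These 8 cannot stand for photosynthesis. Called lower were 2 of 4 matched genes of the Calvin cycle and 2 of 5 of photorespiration, where 7.95% of all probe sets were. From an ontology display, the study reported a large repressive effect of Pi starvation on light reaction and photorespiration genes. That display showed mean changes on a colour scale, with no 2-fold threshold, and was not limited to the genes matched here. The counts above are therefore not a check of it.

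The 10 members for ribosome assembly in the nucleolus include AT2G40360 and AT1G52930, related to yeast factors for the large ribosomal subunit (BOP1 and BRX1), AT3G05060 of the NOP58 family, which guides methylation of ribosomal RNA, AT2G37990, related to yeast RRS1, AT1G23280, related to yeast MAK16, and AT3G10530, related to yeast UTP7 of the small subunit. AT2G40360 had log2 signals of 9.77, 10.13 and 9.03 in shoots labelled phr1 phl1, 9.83, 8.87 and 9.93 in phr1 shoots, and 7.82, 7.13 and 8.03 in WT shoots without Pi, against 9.37, 9.34 and 9.37 in WT shoots with Pi. AT1G52930 had 9.02, 9.24 and 8.68 in shoots labelled phr1 phl1, 8.88, 8.5 and 9.27 in phr1 shoots, and 6.67, 6.01 and 6.78 in WT shoots without Pi, against 8.49, 8.69 and 8.47 in WT shoots with Pi. In both genes each mutant array exceeded each Pi-starved WT array. Over the 10, phr1 minus WT in shoots had a median of 2.11. All 10 were called higher by limma, where 89.1% of all members and 6.48% of all probe sets were. Their phr1 phl1 minus phr1 differences in shoots had a median of -0.06 with values of -0.22 to 0.13. Of these, 0 were called by limma, with 0 in either direction at an unadjusted p under 0.05. A list of 37 genes of ribosome biogenesis, added after the values were seen, had 23 matched genes, of which 6 were members. Of the 17 that were not members, 12 were called lower in Pi-starved WT shoots by limma, where 7.95% of all probe sets were. Called higher in phr1 than in WT shoots were 16, where 6.48% of all probe sets were. Called higher in phr1 phl1 shoots against WT shoots were 14, where 8.24% of all probe sets were. These comparisons all share the arrays of Pi-starved WT shoots. As the list was also made after the values were seen, the counts support nothing further.

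**Figure D3:**
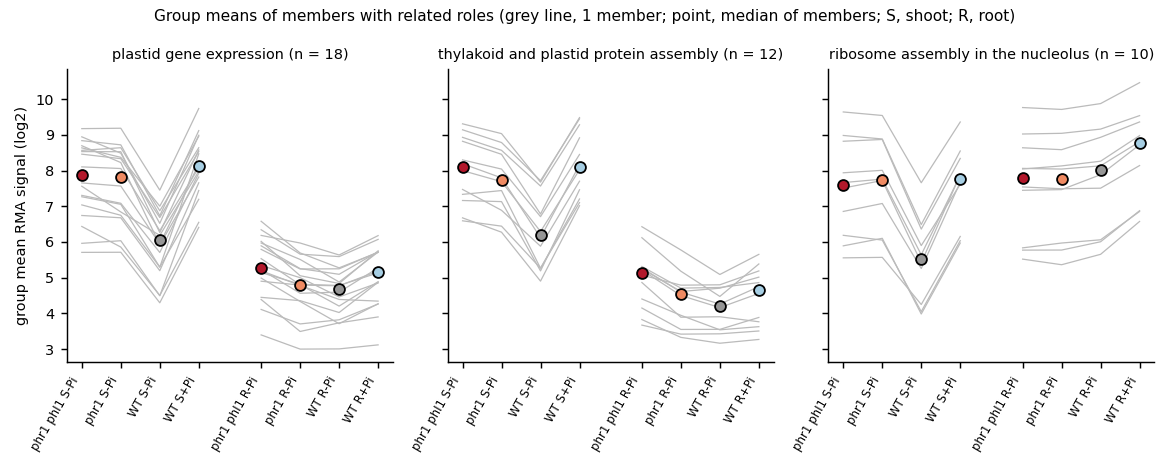
Group means of the log2 signal for members with related roles, in shoots (S) and roots (R) of each group, with a grey line per member and a point for the median. In roots labelled phr1 phl1 the median is 5.28 for plastid gene expression, against 4.68 in WT roots without Pi, and 7.79 for ribosome assembly in the nucleolus, against 8.01 in WT roots without Pi.

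Smaller groups showed other patterns. PRL, coding for MCM7 of the helicase that unwinds DNA for replication, had log2 signals of 7.22, 7.05 and 7.00 in shoots labelled phr1 phl1, 6.5, 6.0 and 6.28 in phr1 shoots, and 5.52, 5.18 and 5.54 in WT shoots without Pi, against 6.98, 7.44 and 7.12 in WT shoots with Pi. The phr1 arrays lay between those of Pi-starved WT and those labelled phr1 phl1, without overlap. The phr1 phl1 minus phr1 difference of PRL was 0.83 (SE 0.153, adjusted p = 0.0064 by limma), less than 2-fold. The primase subunit gene POLA3 and the histone H2B gene AT2G37470 had phr1 phl1 minus phr1 differences of 0.54 and 0.56, which did not pass the test (adjusted p = 0.408 and 0.101 by limma). The 3 genes of pectin modification (AT5G62360, AT5G20740 and AT3G10720, the last a pectin methylesterase) had group means in shoots labelled phr1 phl1 that were 0.25 to 0.95 above those of Pi-fed WT shoots. AT5G20740 had 7.46, 6.71 and 7.89 in shoots labelled phr1 phl1, 6.84, 6.99 and 7.27 in phr1 shoots, and 3.94, 4.65 and 4.04 in WT shoots without Pi, against 6.44, 6.44 and 6.32 in WT shoots with Pi. All mutant arrays of AT5G20740 lay above the Pi-fed WT arrays.

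The 20 pathway lists drawn up with earlier results known held 361 genes, of which 74 matched a probe set and 0 were members. The rule set aside 6 named genes, 3 of which met all limits, so the 0 is not read as absence of a pathway. Past the shoot limit were 2 matched genes of chlorophyll synthesis. There was 1 each for cytokinin response, brassinosteroid and gibberellin, cell wall expansion, fatty acid and phospholipid, and sugar-repressed genes. Of 9 matched genes of chlorophyll synthesis, 6 were called lower in Pi-starved WT shoots by limma, where 7.95% of all probe sets were. In shoots labelled phr1 phl1 against WT shoots, 1 was called higher, where 8.24% of all probe sets were. Of the marker genes for other cell types, the guard cell marker AT1G22690 was called lower in Pi-starved WT shoots (-1.07) and higher in shoots labelled phr1 phl1 than in WT shoots (1.57). The other matched guard cell marker, FMA, was called in neither comparison (-0.44 and 0.61). The vascular marker IRX3 was called lower in shoots labelled phr1 phl1 than in WT shoots (-1.35). The summed linear signal of the 2 matched guard cell markers of 7 was 786 to 1316 in shoots labelled phr1 phl1, 294 to 766 in phr1 shoots and 307 to 471 in WT shoots without Pi, against 652 to 837 in WT shoots with Pi. The leaf markers RCA and PSAN, 2 matched of 7, were not called in Pi-starved against Pi-fed WT shoots (-0.25 and -0.01). The part of such markers in the members' differences was not tested.

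In WT roots, the members' difference without Pi minus with Pi had a median of -0.38, beside -0.01 over all probe sets. Of 202 values, 175 were below 0, and the range was -1.0, the limit set by the rule, to 0.69. The probe sets that met the shoot and root limits but not the phr1 phl1 limit had a median of -0.33, so this fall is not particular to the members. For the nucleolar group all 10 values were below 0 (-0.92 to -0.38, median -0.70), and for the plastid gene expression group 17 of 18 were below 0 (median -0.48). Several members were close to the lowest signals of the array in roots. AT1G07050, for example, had 2.95, 2.95 and 2.87 in WT roots without Pi, against 2.97, 2.89 and 2.77 in WT roots with Pi, which leaves no room for a lower value. The highest signals in WT roots with Pi, each for its own probe set, were those of AT2G40360, ATG2 (coding for EBP1, a nucleolar growth regulator), AT1G62480, HSP60-2 (a mitochondrial chaperonin) and AT1G52930. AT1G62480 had 9.23, 9.29 and 9.10 in WT roots without Pi, against 10.20, 9.64 and 10.02 in WT roots with Pi, so that its Pi-starved root arrays kept a level far above its Pi-starved shoot arrays.

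In roots without Pi, few members passed the threshold between phr1 and WT. The difference phr1 minus WT had a median of -0.01, beside -0.03 over all probe sets. By limma, 1 member (0.495%) was over 2-fold higher with an adjusted p under 0.05, where 1.49% of all probe sets were, and 0 were lower, where 0.919% of all probe sets were. At an unadjusted p under 0.05, 17 were higher and 2 lower. The 1 member was the unnamed probe set 248606_at.

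Roots labelled phr1 phl1 differed from WT roots in more members. The median difference was 0.27, beside -0.02 over all probe sets, and 142 of 202 values were above 0. By limma, 21 members (10.4%) were over 2-fold higher with an adjusted p under 0.05, where 3.45% of all probe sets were, and 0 were lower, where 2.19% of all probe sets were. At an unadjusted p under 0.05, 62 were higher and 2 lower. Against phr1 roots, a comparison in which no array entered the rule, the median was 0.25, beside 0.01 over all probe sets, with 164 of 202 values above 0. There 6 members (2.97%) were called higher by limma, where 0.98% of all probe sets were, and 0 lower, where 0.809% of all probe sets were, with 54 higher and 1 lower at an unadjusted p under 0.05.

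The members called in roots were mostly ones with a higher signal in shoots with Pi. Of the 21 called against WT roots, 19 were among the 138 members over 2-fold higher in shoots, 2 among the 52 within 2-fold and 0 among the 12 higher in roots, and all 6 called against phr1 roots were among the 138. AT4G32340 had log2 signals of 6.0, 6.05 and 6.38 in roots labelled phr1 phl1, 4.64, 4.27 and 4.86 in phr1 roots, and 3.74, 4.40 and 4.24 in WT roots without Pi, against 4.56, 4.86 and 5.43 in WT roots with Pi. The arrays labelled phr1 phl1 stood above all other root arrays. AT4G32340 was 2.02 higher than in WT roots without Pi (SE 0.271, adjusted p = 2.19e-05 by limma) and 1.55 higher than in phr1 roots (SE 0.271, adjusted p = 0.0013 by limma). AT1G25230, the purple acid phosphatase, had 9.05, 8.58 and 8.58 in roots labelled phr1 phl1, 8.17, 8.11 and 7.73 in phr1 roots, and 6.88, 6.58 and 6.80 in WT roots without Pi, against 8.04, 7.30 and 7.91 in WT roots with Pi. Its difference from WT roots without Pi was 1.98 (SE 0.366, adjusted p = 7.02e-04 by limma). AT1G67700 had 5.95, 6.05 and 6.36 in roots labelled phr1 phl1, 5.21, 5.0 and 5.33 in phr1 roots, and 4.51, 4.40 and 4.51 in WT roots without Pi, against 5.33, 5.51 and 5.31 in WT roots with Pi. It was 1.64 higher than in WT roots without Pi (SE 0.161, adjusted p = 3.71e-07 by limma). The other named calls against WT roots were AT1G73655 (1.34), AT4G17560 (1.33), AT3G18680 (1.3), AT1G01080 (1.28), AT1G49200 (1.27), AT5G04810 (1.18), AT3G22210 (1.1), AT3G12930 (1.09), LPA19 (1.05) and AT3G60370 (1.01).

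By role, the plastid groups held 9 of the 21 calls. Calls of unnamed probe sets could not be given a role, so the rest cannot be taken as calls outside the plastid. For plastid gene expression 5 of 18 were called (median difference 0.70, 18 values above 0). For thylakoid and plastid protein assembly 4 of 12 were called (median 0.76, 12 values above 0). Of all members 10.4% were called higher in this comparison, and of all probe sets 3.45%. The nucleolar group had 0 of 10 called by limma (median -0.18, 1 value above 0), with 0 in either direction at an unadjusted p under 0.05. Among the members called against phr1 roots were AT3G22210 (1.05, adjusted p = 0.0023 by limma) and AT1G49200 of the RING finger type (1.12, adjusted p = 0.049 by limma). AT3G22210 had 4.45, 4.98 and 5.12 in roots labelled phr1 phl1, 3.84, 3.79 and 3.78 in phr1 roots and 3.86, 3.52 and 3.88 in WT roots without Pi, against 3.88, 4.16 and 3.92 in WT roots with Pi. These are low signals, also in the roots labelled phr1 phl1, when set against 9.63, 9.88 and 9.47 in shoots labelled phr1 phl1. Without replicate 3 of roots labelled phr1 phl1, 13 members were called against WT roots instead of 21, and without replicate 1, 10 were called against phr1 roots instead of 6. The call of AT1G49200 against phr1 roots was lost without replicate 1 or 3 of roots labelled phr1 phl1 and without any single array of phr1 roots (adjusted p = 0.0591 to 0.211 by limma), and AT3G22210 was less than 2-fold higher without replicate 2 (0.98) or replicate 3 (0.91) of roots labelled phr1 phl1.

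Leaf genes moved with these members. RCA and PSAN were called higher in the phr1 phl1 roots than in WT roots (1.84 and 1.81) and than in phr1 roots (1.45 and 1.52), and neither was called in phr1 roots against WT roots by limma (0.40 and 0.29). Their summed linear signal was 392 to 627 in roots labelled phr1 phl1, 156 to 189 in phr1 roots and 115 to 143 in WT roots without Pi, against 116 to 290 in WT roots with Pi. In shoots it was 8072 to 11506. Of the 8 matched genes of the light reactions, 0 were called lower in Pi-starved WT shoots. In the phr1 phl1 roots 7 of the 8 were called higher against WT roots, where 3.45% of all probe sets were. Their median difference was 1.74. The root marker PYK10, 1 matched of 11, was not called (0.16). The part of leaf gene expression in the members' root differences was not tested.

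**Figure D4:**
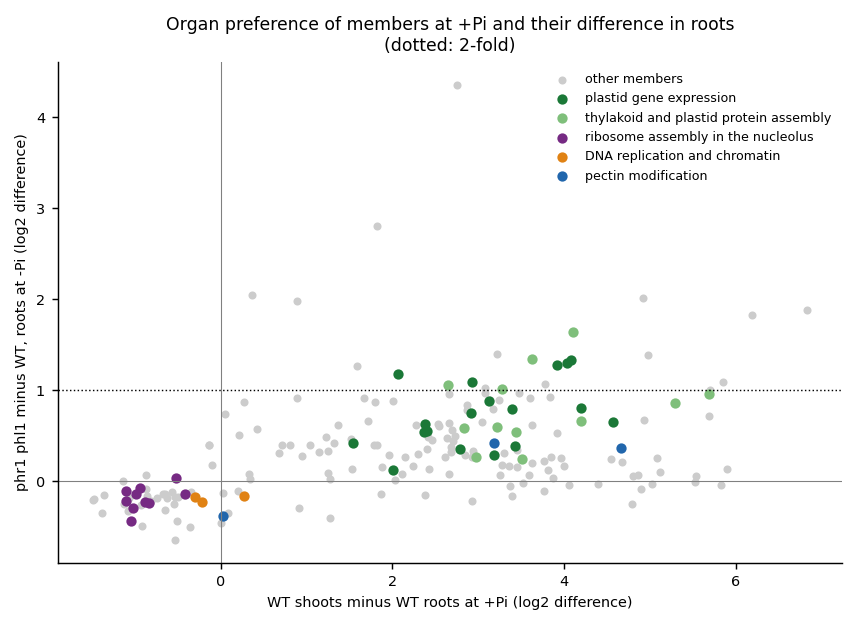
Each member by its WT shoot minus WT root difference with Pi (log2, horizontal axis) and by its phr1 phl1 minus WT difference in roots without Pi (log2, vertical axis), coloured by role. The nucleolar members lie left of 0 and between -0.44 and 0.03 vertically, the plastid members right of 0 and above 0, and the dotted line marks 2-fold.

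The unnamed probe set 248606_at, also singled out after its values were seen, was called by limma in the 3 root comparisons and in phr1 phl1 minus phr1 in shoots. It had 8.29, 8.48 and 7.90 in roots labelled phr1 phl1, 6.45, 6.09 and 5.42 in phr1 roots, and 3.85, 3.81 and 3.94 in WT roots without Pi, against 5.09, 4.36 and 5.07 in WT roots with Pi. In shoots it had 8.47, 8.08 and 8.12 in plants labelled phr1 phl1, 6.44, 6.15 and 6.62 in phr1, and 5.82, 5.59 and 4.85 in WT without Pi, against 7.70, 7.06 and 8.01 in WT with Pi. The order phr1 phl1, phr1, WT was thus the same in both organs without Pi.

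**Figure D5:**
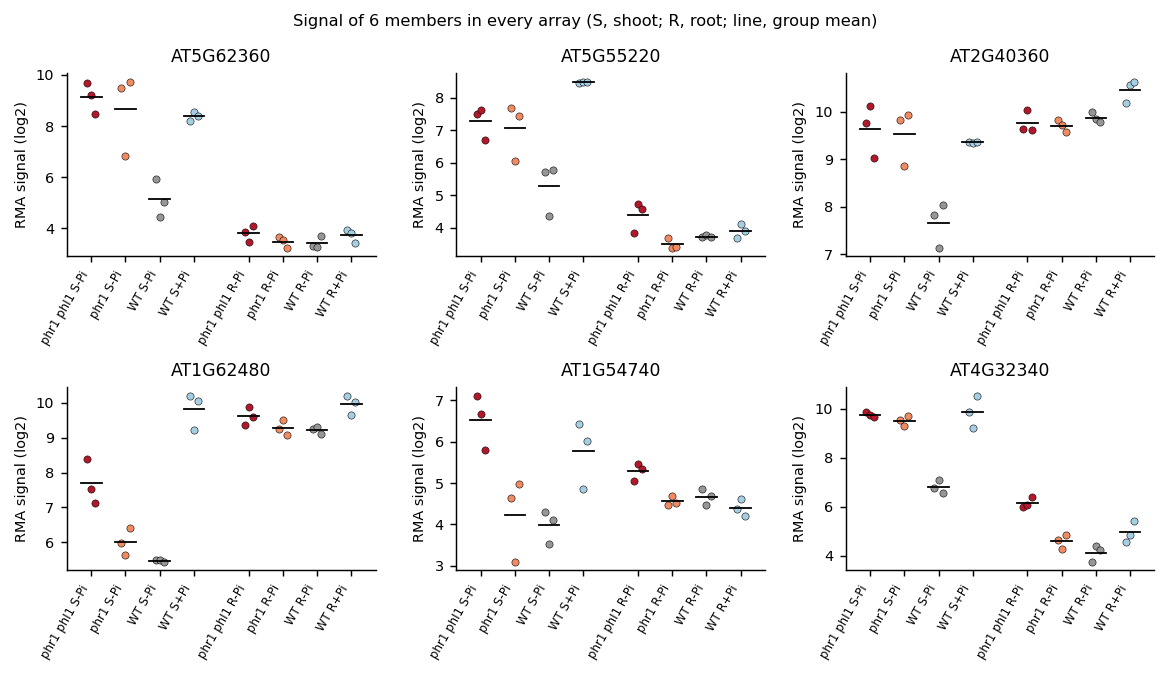
Log2 signal of 6 members in every array, in shoots (S) and roots (R), with 3 points per group and a line at the group mean. AT4G32340 lies between 6.0 and 6.38 in roots labelled phr1 phl1, and AT1G54740 between 3.09 and 4.98 in phr1 shoots, overlapping with Pi-starved WT shoots.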

How the data were processed

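The arrays measured total RNA of 7-day-old Arabidopsis seedlings on Affymetrix ATH1 arrays, 24 in all. The authors deposited log2 expression values, made with RMA (background correction, quantile normalization and summary per probe set), which pulls the arrays to 1 distribution and compresses differences of dim probe sets. No scanner files were used. The number of arrays limits the precision. From the log2 values, group means gave the members. The limma 3.58.1 fit in R 4.3.3 covered all 24 arrays with 8 group means and Benjamini-Hochberg adjustment over 22746 probe sets. It was tried on simulated data with independent noise in each array and known changes in roots labelled phr1 phl1. That simulation held no deviations shared between arrays, so it does not cover their effect on the calls. A call needs a difference over 2-fold and an adjusted p under 0.05. Probe sets were named through the platform annotation, and for 5 members through the probe set and locus columns of the study's table. The replicates are biological and were obtained independently. Replicate numbers paired phr1 with WT shoots (correlations of deviations 0.50, 0.65 and 0.43) and not the groups of the other tested comparisons. Members and lists were chosen with earlier results of these data known. Genes were named by size of difference in each comparison, with exceptions stated. Sequences were not analysed here. Alternatives were other scalings, filters, fits, limits, a replicate block and leaving out each array.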

Additional observations from a re-analysis of the deposited data

Results flagged for a closer look

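The difference phr1 minus WT without Pi was compared between organs by limma as shoots minus roots. It was over 2-fold higher in shoots for 148 of 202 members and lower for 0, where 5.17% of all probe sets were higher and 6.18% lower. The rule used the arrays of Pi-starved WT shoots, which favours a higher value in shoots. AT3G06070 had the highest named value at 3.76, followed by AT5G62360 at 3.51 and AT3G61100 at 3.36. The same comparison for phr1 phl1 minus phr1 was lower in shoots than in roots for 1 member, the unnamed probe set 260221_at (-1.99, adjusted p = 0.038 by limma), and higher for 0, where 0.475% of all probe sets were lower and 0.308% higher.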

How the results depend on the processing

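The set had 202 members, 306 with the shoot limit 0.2 looser, and 148 to 268 when 1 array was left out (148 without replicate 2 of WT shoots without Pi). Members called higher without Pi, with 1 array left out, were 152 to 190 for phr1 against WT shoots, 3 to 7 for phr1 phl1 against phr1 shoots (7 without replicate 1 of phr1 shoots), 1 for phr1 against WT roots, 13 to 27 for phr1 phl1 against WT roots and 4 to 10 for phr1 phl1 against phr1 roots, and 0 were called lower in each. For phr1 phl1 against phr1 shoots, 1 was called with organs fitted separately, 0 with only the compared groups (adjusted p = 0.258 for AT1G54740 and 0.197 for AT1G62480 by limma), 7 with the dimmest probe sets left out, 2 of 100 with 1 probe set per gene and 12 at 1.5-fold with an adjusted p under 0.1. For phr1 against WT roots these were 2, 3, 2, 0 and 6. With 1 probe set per gene, phr1 against WT shoots had 90, phr1 phl1 against WT roots 12 and phr1 phl1 against phr1 roots 2, and at the relaxed threshold the last of these had 24 and phr1 phl1 against WT roots 48. Only the 100 named members entered the fit with 1 probe set per gene. The cause of the other shifts was not tested. With the replicate block, 180, 6, 1, 21 and 6 members were called higher in the 5 comparisons in the order given, and no call count moved by over 1.5 times. The pairing held for phr1 and WT shoots alone. Leaving out arrays turned the sign of 5 uncalled differences. AT1G54740 in phr1 against WT shoots ranged from -0.12 to 0.83, and phr1 phl1 against phr1 shoots ranged from -0.63 to 0.064 for AT2G37990, -0.82 to 0.23 for AT3G05060, -0.66 to 0.087 for AT3G10530 and -0.94 to 0.18 for AT3G52170. The call of AT1G49200 in phr1 phl1 against phr1 roots was lost in 8 alternatives, among them quantile normalization within each organ (adjusted p = 0.054 by limma).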
